A study of Mus musculus with 16 samples.

Results

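Genes for translation initiation factors were followed across 15 RNA-seq libraries of DN3 thymocytes, the CD4-CD8-CD25+CD44- stage of T-cell development in the thymus. They were taken as every gene whose symbol is Eif followed by a digit from 1 to 6, with the Eif2ak kinases left out, which gave 51 of the 22114 genes listed in each of 2 count tables. Of these, 50 passed the filter on low counts in each table. The other member, Eif4e1b, an egg-type relative of the cap-binding protein, had 0 counts in every library. Members were placed by their known roles into eIF2 (4 genes), eIF2B (5 genes), eIF3 (14 genes), scanning and start-site factors (8 genes), eIF4F and its helpers (11 genes), eIF4E-binding proteins (4 genes), and eIF5A with eIF6 (3 genes). Eif4a3, a core protein of the exon junction complex, and Eif1ad share only the name and formed the remaining pair of 2 genes.

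The first table holds 3 GFP_HI and 3 GFP_LO libraries. Both came from mice with the H2B-GFP;Lmo2Tg genotype, which carry 1 TetOP-H2B-GFP knock-in allele and an Lmo2 transgene under the CD2 promoter, which is active in T-lineage cells. The mice received doxycycline for 6 weeks and were then chased for 2 weeks, so that GFP_HI cells had kept the histone label through little division and GFP_LO cells had diluted it. The series describes these replicates as pooled, and both populations carried the Lmo2 oncogene, so that no GFP library came from wild-type cells. The second table holds total DN3 cells, without a GFP gate, of wild-type (wt, 3 libraries), p21-/- (2 libraries), Lmo2Tg (2 libraries, here A and B) and Lmo2Tg;p21-/- mice (2 libraries), at 6 weeks of age according to the methods for expression profiling. The labels give C57BL/6 as the strain of all samples. The GFP libraries held 26861394 to 31106213 counts and the genotype libraries 13864936 to 16837667, and in both sets the DN3 genes Rag1, Ptcra and Il2ra were present in every library. Reads of Cdkn1a, the gene for p21, stood at 36.5 to 49.0 CPM (reads of a gene relative to the size of its library, after TMM scaling) in wt, 14.3 and 17.7 in p21-/-, 32.8 and 26.3 in Lmo2Tg, and 4.35 and 3.50 in Lmo2Tg;p21-/- libraries, and Lmo2 was at 0.306 CPM or below in all wt and p21-/- libraries and at 41.4 CPM or above in all that carried the transgene. Library GFP_HI 3 stood apart from GFP_HI 1 and 2 in Lmo2 (285 CPM against 53.8 and 29.5) and in Cdkn1a (6.56 CPM against 35.8 and 29.9), and results that rest on it are also given without it. The 2 tables were counted differently, the first by strand and the second without strand, so values were tested only within a table.

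As background, translation of most mRNAs starts when eIF2, bound to GTP and the initiator tRNA, joins the small ribosomal subunit together with eIF1, eIF1A, eIF3 and eIF5. eIF2B recharges eIF2 with GTP, and kinases that phosphorylate the alpha subunit of eIF2 block this exchange and favour the translation of Atf4. The subunit is brought to the capped end by eIF4F, made of the cap-binding eIF4E, the helicase eIF4A and the scaffold eIF4G, and the eIF4E-binding proteins, which mTORC1 inactivates, keep eIF4E away from eIF4G. T-cell progenitors raise protein synthesis when they leave the resting state, and many initiation factor genes are targets of MYC.

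Promoter sequence was read for the members because MYC binds the E-box CACGTG. RefSeq start sites on GRCm38.p6 were matched for 39 of the 51 members. Of the windows of 250 bases before a start site, 6.02% of all 32851 held CACGTG on either strand (the motif is its own reverse complement), and so did 11 of the 51 windows of members, which belong to 9 genes, namely Eif1b, Eif3f, Eif3k, Eif4a1, Eif4e, Eif4g1, Eif4h, Eif5a and Eif5a2. The composite element bound by ATF4, searched as TGATGNAA on both strands, was present in 3.45% of windows and among members only in that of Eif2s3x, and the cyclic AMP response element TGACGTCA, also searched on both strands, was in 1.55% of windows and in 0 of the members. The 3 windows below belong to genes that were lower in Lmo2Tg;p21-/- than in p21-/- cells (described later), and were chosen after those values had been seen. Each is the first window of its gene that held an E-box. Those of Eif4e and Eif5a lie within the annotated span of the gene, before a start site inside it. CACGTG is in capitals, and each sequence runs 5′ to 3′ towards the start site.
Eif4a1, chr11:69672424-69672673, minus strand: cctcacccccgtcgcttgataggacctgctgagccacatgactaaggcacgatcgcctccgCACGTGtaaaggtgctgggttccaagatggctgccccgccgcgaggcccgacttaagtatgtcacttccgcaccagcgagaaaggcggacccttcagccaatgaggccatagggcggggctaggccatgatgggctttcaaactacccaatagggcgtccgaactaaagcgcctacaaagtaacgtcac
Eif4e, chr3:138527018-138527267, plus strand: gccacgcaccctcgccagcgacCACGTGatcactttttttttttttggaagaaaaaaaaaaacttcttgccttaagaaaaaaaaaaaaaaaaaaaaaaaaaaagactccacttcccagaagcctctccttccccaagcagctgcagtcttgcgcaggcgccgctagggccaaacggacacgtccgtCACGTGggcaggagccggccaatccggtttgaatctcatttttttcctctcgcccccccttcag
Eif5a, chr11:69921387-69921636, minus strand: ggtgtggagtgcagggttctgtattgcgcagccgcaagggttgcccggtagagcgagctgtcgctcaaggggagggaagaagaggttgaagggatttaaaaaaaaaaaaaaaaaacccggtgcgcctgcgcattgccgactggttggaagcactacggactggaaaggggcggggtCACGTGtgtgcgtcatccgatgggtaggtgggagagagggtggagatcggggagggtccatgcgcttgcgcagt
The E-box of Eif4a1 began 189 bases before the start site, those of Eif4e 228 and 64 bases before it, and that of Eif5a 74 bases before it.

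The members together took 1.14 to 1.22% of all counts in the GFP libraries. In the genotype libraries they took 1.44 to 1.5% in wt, 1.44 and 1.5% in p21-/-, 1.41 and 1.51% in Lmo2Tg, and 1.23 and 1.32% in Lmo2Tg;p21-/- libraries, so that both double-mutant libraries lay below the other 7. Per kilobase of exon (RPKM), the levels of the members spanned more than the changes between groups did. Eif5a, whose hypusine-bearing protein helps ribosomes through difficult stretches and at termination, was the highest member in all 6 groups, at a mean of 328 RPKM in GFP_HI, 316 in GFP_LO, 536 in wt and 372 in Lmo2Tg;p21-/- cells. Its paralog Eif5a2 stood at 0.421 to 3.68 RPKM. Among the scaffolds, Eif4g2, which lacks the eIF4E-binding part and supports initiation without the cap, had a mean of 177 RPKM in wt cells, above Eif4g1 (110 RPKM) and Eif4g3 (22.5 RPKM). Within eIF3, whose subunits join into 1 complex, the mean level in wt cells ran from 8.19 RPKM for Eif3j1 to 203 RPKM for Eif3h, with the near-copy Eif3j2 at 0.269 RPKM. Eif3j2 and Eif3j1 share 91.8 and 36.9% of their stretches of 50 bases with other genes, mainly each other, so these 2 levels are uncertain. The eIF2B subunits ran from 4.85 (Eif2b3) to 44.2 RPKM (Eif2b5) in the same cells. Of the eIF4E-binding proteins, Eif4ebp2 was the highest (28.4 RPKM in wt), Eif4ebp1 stood at 4.03 RPKM and Eif4ebp3 at 0.524 RPKM. Lengths were those of all annotated exons, so levels of genes with long, rarely used exons are understated.

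GFP_HI was compared with GFP_LO to ask how cell-cycle-restricted DN3 cells differ from those that had divided. In GFP_HI cells the eIF4E-binding protein gene Eif4ebp1 and 4 eIF3 and eIF4B genes on chromosome 15 were lower, and the minor eIF5A gene Eif5a2 was higher. Over all genes tested on chromosome 15 the median was lower too, at -0.43 on the log2 scale. Of the 50 members tested, 8 passed an adjusted p of 0.05 in edgeR's quasi-likelihood test (adjusted over all genes by Benjamini-Hochberg), 3 higher and 5 lower. That was 16% of the members, against 14.9% of the 11581 genes tested (5.37% higher and 9.49% lower). The study profiled independent cohorts, and whether a replicate number marks a cohort is not stated. With the replicate number as a block, only Eif4ebp1 of the 8 passed. The 2 groups did not overlap for 21 members, and for 41.3% of all genes. The median log2 fold change of the members was 0.05, against 0.02 over all genes, and 29 members were higher and 21 lower, where 52.1% of all genes had a log2 fold change above 0.

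**Figure D1:**
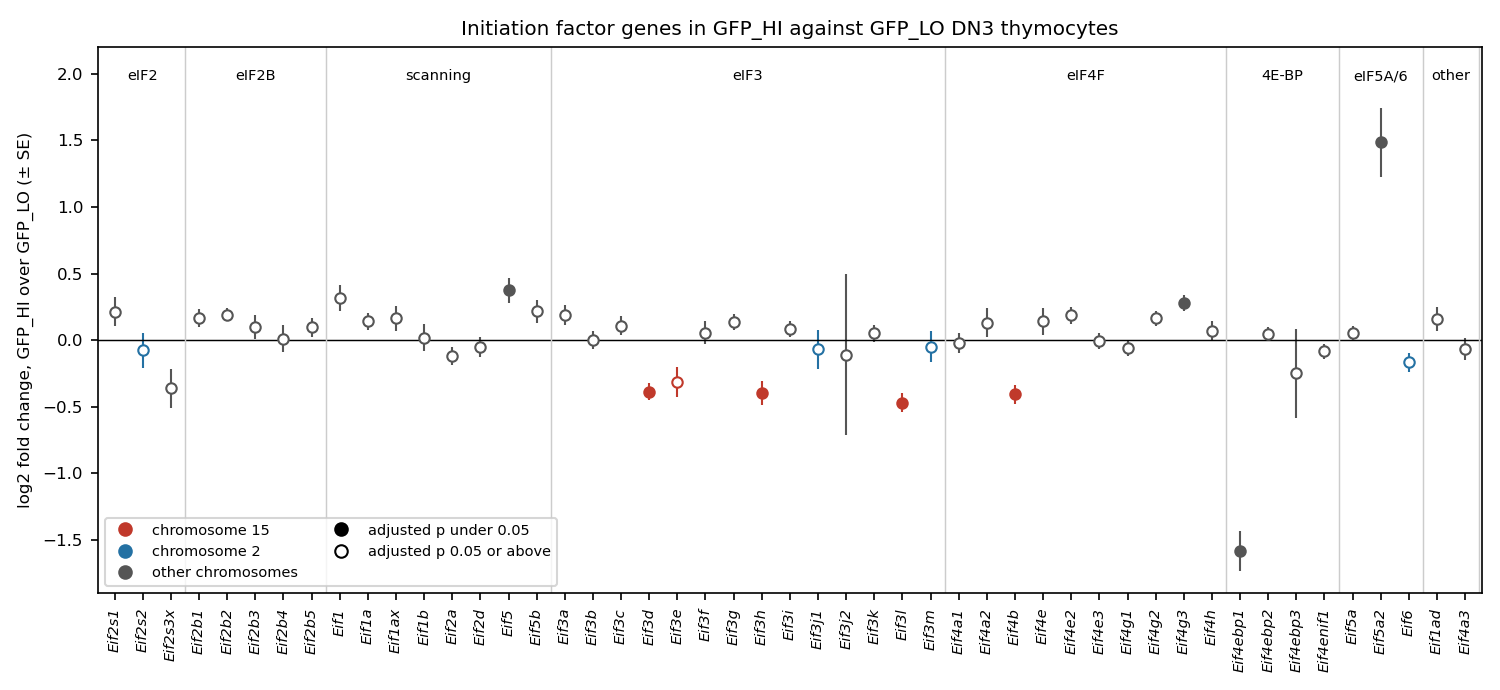
Log2 fold change of GFP_HI over GFP_LO cells (y axis, ± SE) for 49 members by factor group (x axis), with filled points for an adjusted p under 0.05 and colours for chromosomes 15 and 2. Eif2s3y is left out for scale. Eif5a2 and Eif4ebp1 lie farthest from 0, and the 5 members on chromosome 15 all lie below it.

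Eif4ebp1, whose product holds eIF4E inactive until mTORC1 phosphorylates it, had 3.90, 4.57 and 5.10 CPM in the GFP_HI libraries and 12.7, 13.2 and 14.8 CPM in the GFP_LO libraries. Every GFP_HI value lay well below every GFP_LO value. It fell by 1.58 on the log2 scale (SE 0.15, adjusted p = 0.0037 in edgeR's quasi-likelihood test), 2.99-fold lower in GFP_HI. The other inhibitors did not pass the test: Eif4ebp2 stood at 163 to 170 CPM in GFP_HI and 158 to 168 CPM in GFP_LO libraries, and Eif4ebp3 was below 0.52 CPM in all 6. Eif4enif1, which carries eIF4E into the nucleus, had 118 to 129 CPM in GFP_HI and 129 to 135 CPM in GFP_LO libraries.

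Eif5a2 had 5.70, 5.32 and 6.74 CPM in GFP_HI and 2.81, 1.57 and 1.964 CPM in GFP_LO libraries. The groups were apart, at low levels. It rose by 1.48 (SE 0.26, adjusted p = 0.018 in edgeR's quasi-likelihood test), while the abundant Eif5a showed 766 to 799 CPM in GFP_HI and 740 to 763 CPM in GFP_LO libraries and did not pass. With Eif4ebp1 it was 1 of the 2 members that changed more than 2-fold, which 6.31% of all genes did.

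Eif5 and Eif4g3 also rose in GFP_HI cells. Eif5, the GTPase activator of eIF2 that is needed for start-codon recognition, had 421, 425 and 367 CPM in GFP_HI and 290, 303 and 342 CPM in GFP_LO libraries. The lowest GFP_HI library, GFP_HI 3, stood only a little above the highest GFP_LO library. The difference was 0.38 (SE 0.09, adjusted p = 0.046 in edgeR's quasi-likelihood test), just inside the threshold. Eif4g3, another scaffold of eIF4F, had 280, 288 and 310 CPM against 250, 238 and 235 CPM, a difference of 0.28 (SE 0.06, adjusted p = 0.035 in the same test). Both calls were lost when the scaling left out chromosomes 2, 15 and 17 (adjusted p = 0.065 for Eif5 and 0.059 for Eif4g3 in edgeR's quasi-likelihood test).

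**Figure D2:**
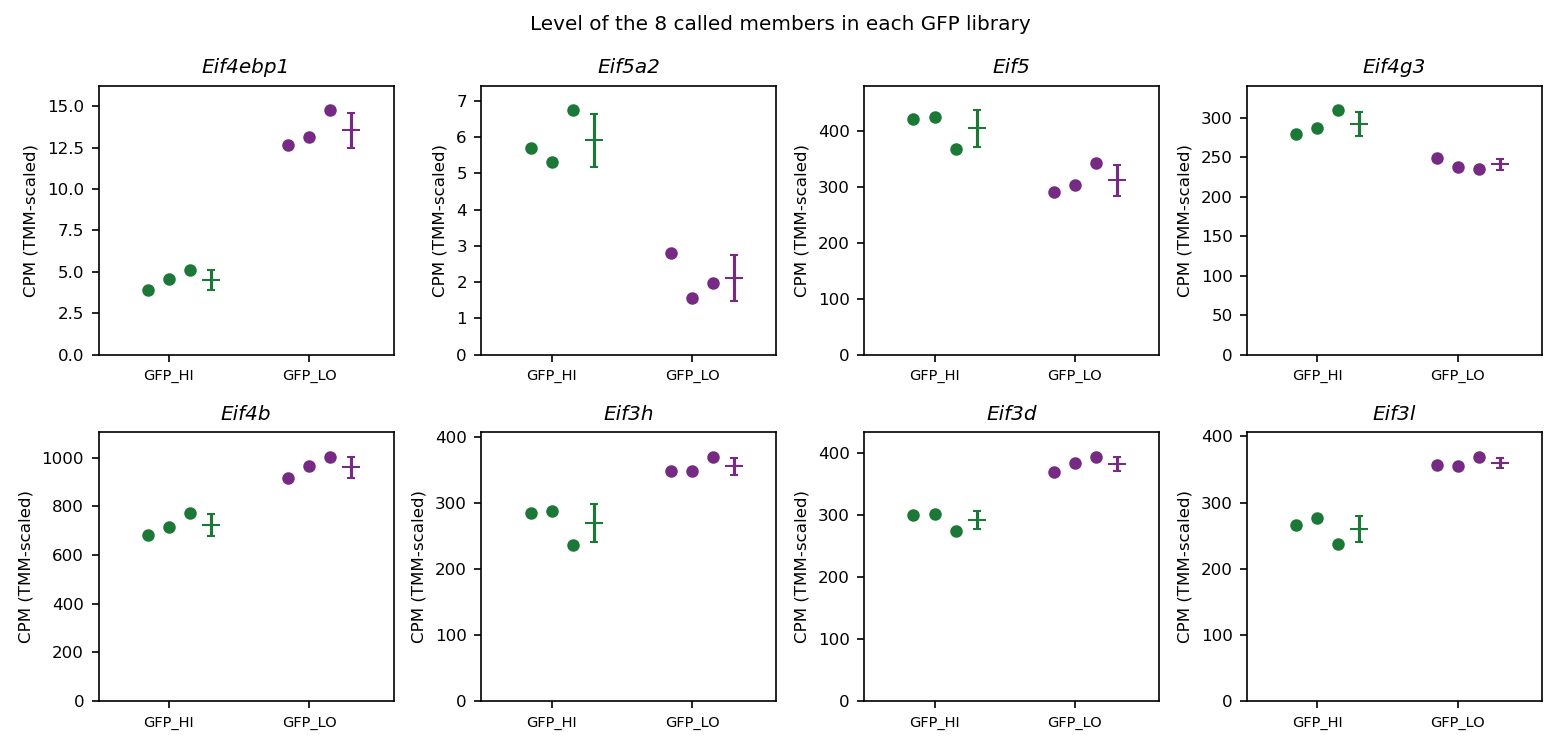
CPM (y axis, from 0) of the 8 members that passed the test in each GFP_HI and GFP_LO library, with a bar for the mean and SD of 3 libraries. The groups do not overlap in any of the 8 panels, and they lie farthest apart for Eif4ebp1 and Eif5a2.

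The 5 called members that were lower in GFP_HI were Eif4ebp1, on chromosome 8, and 4 genes on chromosome 15. Eif4b, a helper of the eIF4A helicase, had 684, 716 and 773 CPM in GFP_HI and 917, 964 and 1001 CPM in GFP_LO libraries. Eif3l, Eif3d and Eif3h encode subunits of eIF3, the scaffold that holds the initiation complex on the small ribosomal subunit. Eif3l had 266, 276 and 238 CPM against 356, 355 and 369 CPM, Eif3d had 301, 302 and 275 CPM against 370, 384 and 393 CPM, and Eif3h had 286, 288 and 237 CPM against 348, 349 and 370 CPM. In each of these genes all 3 GFP_HI libraries lay below all 3 GFP_LO libraries. The log2 differences were -0.41 (SE 0.07) for Eif4b, -0.47 (SE 0.07) for Eif3l, -0.39 (SE 0.06) for Eif3d and -0.40 (SE 0.09) for Eif3h, with adjusted p of 0.019, 0.012, 0.014 and 0.038 in edgeR's quasi-likelihood test. The fifth member on chromosome 15, Eif3e, differed by -0.32 (SE 0.11) and did not pass (adjusted p = 0.11 in edgeR's quasi-likelihood test). The median over these 5 members was -0.40, beside -0.43 over all 464 genes tested on chromosome 15. The 4 members on chromosome 2 (Eif3m, Eif3j1, Eif2s2 and Eif6) were all lower without passing the test, with a median of -0.07 beside -0.18 over the 923 genes tested on that chromosome. The 8 eIF3 genes on other chromosomes ran from -0.11 (Eif3j2) to 0.19 (Eif3a), and none of them passed.

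All 5 subunit genes of eIF2B were higher in GFP_HI, by 0.01 to 0.19, and none passed the test with all 6 libraries. Eif2s1, the eIF2 subunit whose phosphorylation slows translation, had 126, 132 and 106 CPM in GFP_HI and 97.4, 102 and 115 CPM in GFP_LO libraries. The groups overlapped because of GFP_HI 3, and the difference of 0.21 (SE 0.11) did not pass (adjusted p = 0.22 in edgeR's quasi-likelihood test). Eif4e had 67.3 to 77.1 CPM in GFP_HI and 61.4 to 75.6 CPM in GFP_LO libraries, Eif4a1 had 158 to 168 and 151 to 177 CPM, and Eif4g1 had 815 to 876 and 862 to 907 CPM, so the core of eIF4F overlapped between the groups.

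Without library GFP_HI 3, 22 members passed, 15 higher and 7 lower. That was 44% of members, against 41.3% of the 11745 genes then tested, so the share of members followed that of all genes. The 8 genes called with all libraries were called again and 14 were added, among them 3 of the 5 eIF2B subunits (Eif2b1, Eif2b2 and Eif2b5, by 0.22, 0.20 and 0.17), Eif2s1 (0.31), Eif3e (-0.20), Eif3a (0.25) and Eif5b (0.30). Leaving out another library gave 2 calls without GFP_HI 1, 4 without GFP_HI 2, 5 without GFP_LO 1, and 1 each without GFP_LO 2 and GFP_LO 3. The shares of all genes in those fits are not given here, so their counts are not read as a result about the members. Eif4ebp1 passed in all 6 of these fits, at -1.67 to -1.48. Eif5, Eif4g3 and Eif3h each lost their call in 5 of the 6, Eif4b in 4, Eif5a2 and Eif3d in 3 and Eif3l in 2.

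Markers of other cells moved with the GFP groups. The 4 natural killer and innate markers summed to 165 to 194 CPM in GFP_HI and 87.9 to 109 CPM in GFP_LO libraries, with Nkg7 called higher and Ncr1 at 0 in GFP_LO. The 5 markers of thymic stroma summed to 39.4 to 79.9 CPM and 16.9 to 23.9 CPM, with Epcam called higher and Pdgfra at 0 in both groups. Of 8 B-lineage markers 7 were in the table, summing to 27.3 to 54.4 CPM in GFP_HI and 22.7 to 25.7 CPM in GFP_LO libraries, with none at 0 throughout a group, and Pax5, Cd79a, Cd22 and Ms4a1 passed the test as higher in GFP_HI. GFP_HI 2 held the most, with 174 reads of Pax5, against 0 to 3 reads in the GFP_LO libraries. The part of these cells in the results above was not tested. In bulk libraries, fewer cells of a type and less RNA per cell cannot be told apart.

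In the regulators of the pathway, Eif2ak2, the kinase PKR that phosphorylates eIF2 on sensing double-stranded RNA, fell by 0.62 in GFP_HI, the only 1 of 4 eIF2 kinase genes that passed (adjusted p = 0.0032 in edgeR's quasi-likelihood test). Of 8 tested genes of the eIF2 phosphatase and of the ATF4 response, 0 passed. Among 18 partners of initiation, Pabpc1 (poly(A)-binding protein, on chromosome 15) fell by 0.61, the helicase gene Ddx3x fell by 0.46 and Larp1 rose by 0.22. Of 9 tested genes of mTORC1 and its inputs, Tsc1, Rptor and Tsc2 were lower, by -0.51, -0.31 and -0.24, and none was called higher.

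**Figure D3:**
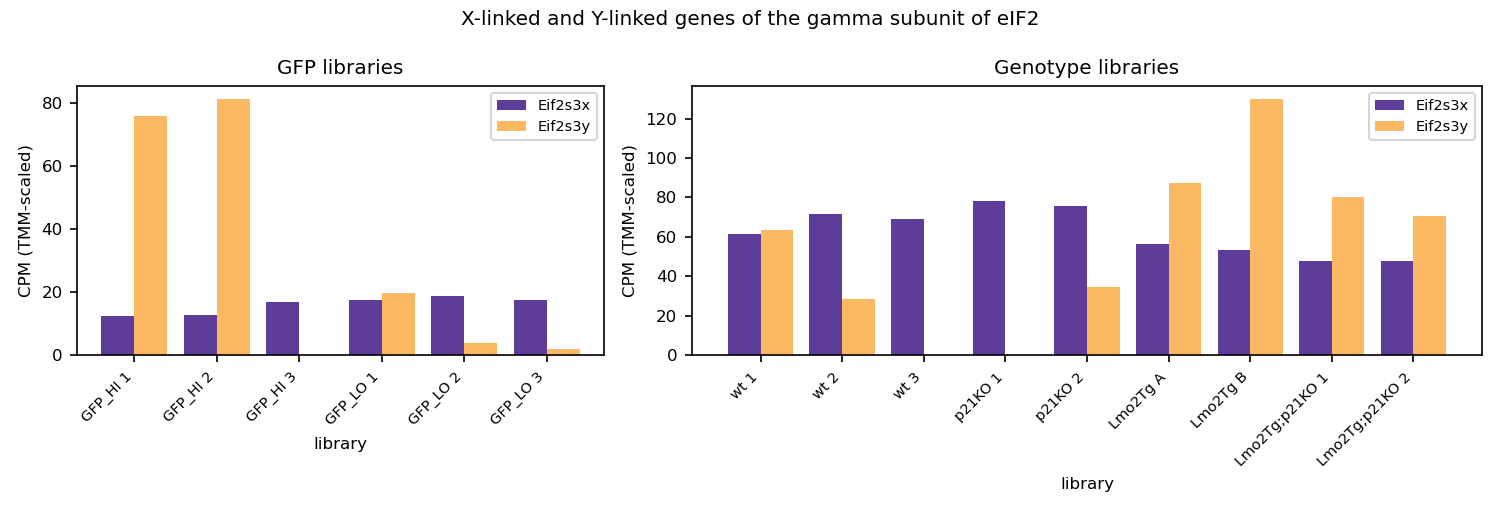
CPM (y axis, from 0) of Eif2s3x and Eif2s3y, the X-linked and Y-linked genes of the gamma subunit of eIF2, in each library (x axis). Eif2s3y runs from 0.112 to 81.3 CPM in the GFP libraries and from 0.0586 to 130.1 CPM in the genotype libraries, and Eif2s3x from 12.3 to 18.8 CPM and from 47.7 to 78.3 CPM.

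The gamma subunit of eIF2, which holds the initiator tRNA, is encoded by Eif2s3x on chromosome X and Eif2s3y on chromosome Y, and the annotated transcripts of these genes share no stretch of 50 bases with each other. Eif2s3x shares 34.6% of its stretches with Gm2223 and a pseudogene, so its level, and the shares of Eif2s3y given next, are uncertain to that extent. Eif2s3y was the most variable member. It had 2063, 2381 and 3 counts in the GFP_HI and 531, 112 and 64 counts in the GFP_LO libraries, which made 86.1, 86.4 and 0.656% of the summed CPM of both genes in GFP_HI and 52.7, 17.3 and 10.5% in GFP_LO. GFP_HI 3 thus had almost no Eif2s3y where GFP_HI 1 and 2 had the most, and the GFP_LO libraries lay between. The difference of 2.62 (SE 1.64) did not pass (adjusted p = 0.31 in edgeR's quasi-likelihood test) with all libraries, and it was 3.23 (SE 0.72) and passed without GFP_HI 3. In the genotype table Eif2s3y had 1033, 449 and 3 counts in wt, 1 and 547 in p21-/-, 1184 and 1902 in Lmo2Tg, and 1124 and 1172 in Lmo2Tg;p21-/- libraries. The Y-linked genes Ddx3y, Uty and Kdm5d were high and low in the same libraries, at a summed 0.633 CPM in GFP_HI 3 and 285 CPM in GFP_HI 2, and at 0.363 CPM in wt 3 and 0.352 CPM in p21-/- 1. The sex of the pooled mice is not given in the labels, and the groups did not hold the same level of Y-linked reads.

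Eif2s3x, in the GFP libraries, had 12.3, 12.8 and 16.9 CPM in GFP_HI and 17.6, 18.8 and 17.6 CPM in GFP_LO libraries, with the higher GFP_HI value in the library that lacked Eif2s3y, and the difference of -0.36 (SE 0.15) did not pass (adjusted p = 0.15 in edgeR's quasi-likelihood test). The sum of both genes was 88.1, 94.1 and 17 CPM in GFP_HI and 37.2, 22.7 and 19.6 CPM in GFP_LO libraries. Any part of the sex of the pooled mice in these values was not tested.

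Loss of p21 in otherwise wild-type cells left the initiation factor genes without a called change. Of the 50 members, 0 passed in p21-/- against wt cells in edgeR's quasi-likelihood test, where 0.11% of all 11840 genes did. The groups did not overlap for 7 members and for 19.5% of all genes, and 1 member had an unadjusted p under 0.05. DESeq2 and limma-voom also gave 0 members. The members split into 25 higher and 25 lower, and the median was 0.00 on the log2 scale. Eif4e had 134, 134 and 154 CPM in wt and 136 and 133 CPM in p21-/- libraries, and Eif2s1 had 196, 198 and 198 CPM in wt and 197 and 206 CPM in p21-/- libraries.

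Lmo2Tg cells were compared with wt cells to ask what the Lmo2 oncogene changes in DN3 thymocytes. The early factor Eif1, the helicase gene Eif4a2, the cap-binding gene Eif4e3, the scaffold Eif4g2 and the eIF3 subunit gene Eif3e were higher, and Eif2s1, Eif2s3x and Eif1a were lower. These were 8 of the 50 members, or 16%, while 36.6% of all genes passed in this comparison in edgeR's quasi-likelihood test (19.7% higher and 16.9% lower). The groups did not overlap for 24 members and for 60.9% of all genes. No member changed more than 2-fold, which 12% of all genes did, 25 members were higher and 25 lower where 48.6% of all genes lay above 0, and the median was -0.01 over both the members and all genes.

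Eif1, which keeps the scanning ribosome open until it meets a start codon, had 270, 290 and 256 CPM in wt and 435 and 504 CPM in Lmo2Tg libraries. Both Lmo2Tg libraries lay far above all wt libraries. It rose by 0.79 (SE 0.14, adjusted p = 0.0012 in edgeR's quasi-likelihood test). Eif4a2 had 410, 422 and 337 CPM in wt and 665 and 721 CPM in Lmo2Tg libraries and rose by 0.83 (SE 0.11, adjusted p = 0.00019 in the same test). Both calls held in each fit that left out 1 library, at 0.68 to 0.89 for Eif1 and 0.74 to 0.89 for Eif4a2. Eif4a1, the more abundant of the 2 in these libraries, had 1163, 1196 and 1331 CPM in wt and 945 and 1102 CPM in Lmo2Tg libraries, without overlap, and its difference of -0.27 (SE 0.10) did not pass (adjusted p = 0.068 in edgeR's quasi-likelihood test). The ratio of Eif4a2 to Eif4a1 reads within a library was accordingly 0.352, 0.353 and 0.254 in wt, 0.309 and 0.381 in p21-/-, 0.703 and 0.654 in Lmo2Tg, and 0.575 and 0.466 in Lmo2Tg;p21-/- libraries. In the GFP libraries, counted by strand, it was 1.8 to 2.48. Annotated transcripts of Eif4a1, Eif4a2 and Eif1 share 28.4, 10.6 and 19.2% of their stretches of 50 bases with other genes, pseudogenes among them, and the exons of Eif4a2 hold small nucleolar RNA genes and overlap Rfc4 on the other strand, so reads could be split or shared there.

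**Figure D4:**
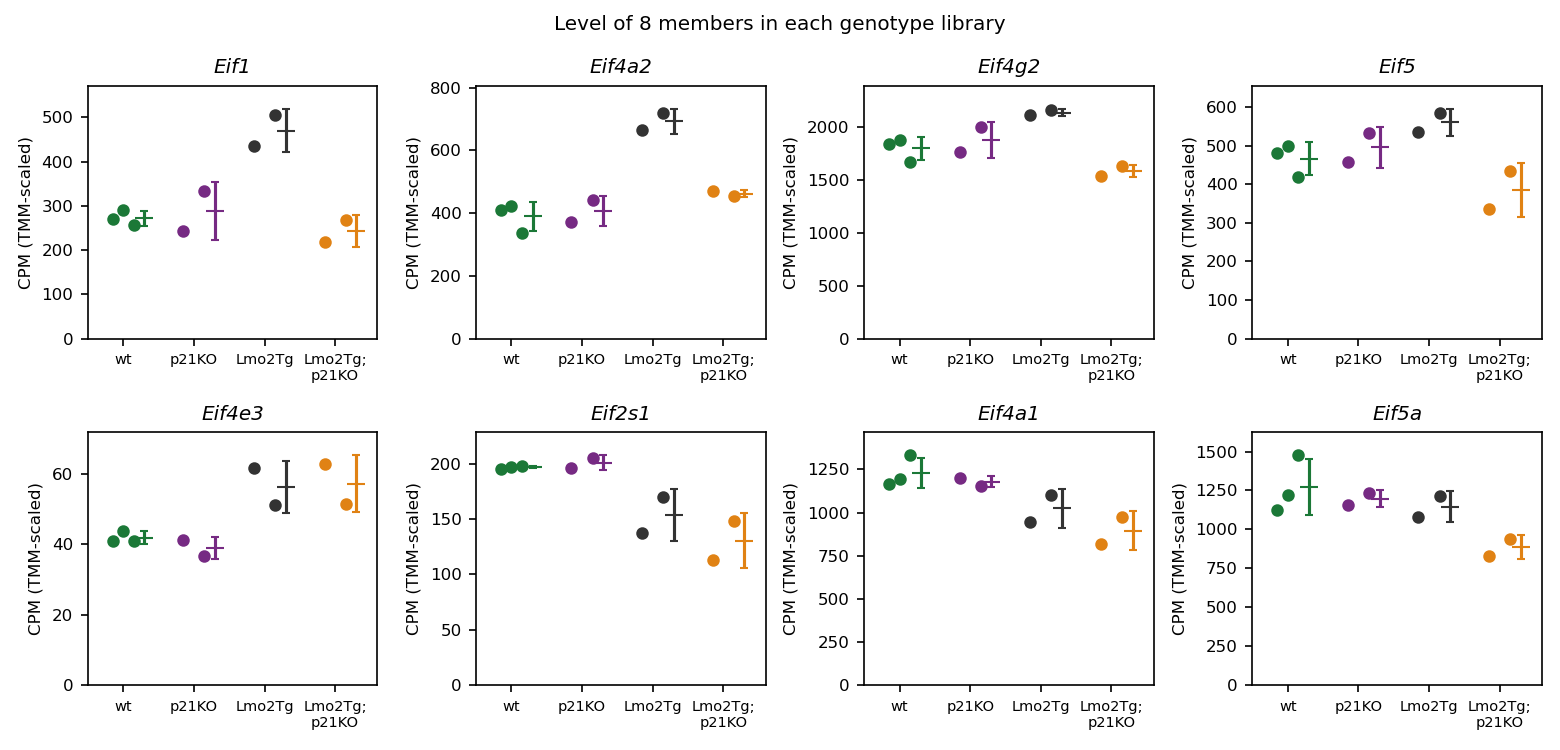
CPM (y axis, from 0) of 8 members in each wt, p21-/-, Lmo2Tg and Lmo2Tg;p21-/- library, with a bar for the mean and SD of 3 or 2 libraries. Eif1, Eif4a2, Eif4g2 and Eif5 are highest in the Lmo2Tg libraries and lower again in the Lmo2Tg;p21-/- libraries, whereas Eif4e3 is high and Eif2s1 low in both genotypes with the transgene.

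The cap-binding gene Eif4e3 had 41.0, 43.9 and 40.8 CPM in wt and 61.6 and 51.1 CPM in Lmo2Tg libraries. It rose by 0.43 (SE 0.11, adjusted p = 0.012 in edgeR's quasi-likelihood test). Eif2s1 had 196, 198 and 198 CPM in wt against 137 and 170 CPM and fell by 0.36 (SE 0.12, adjusted p = 0.035 in the same test). The wt libraries were nearly equal and library B lay closer to them than library A did. Smaller calls were made for Eif3e and Eif4g2, which rose by 0.29 and 0.25, and for Eif2s3x and Eif1a, which fell by 0.29 and 0.28. With wt 3 and p21-/- 1 left out, the 2 libraries almost without Y-linked reads, the difference of Eif2s3x was -0.28 (adjusted p = 0.050 in edgeR's quasi-likelihood test, just over the threshold), and that of Eif2s1 was -0.36 (adjusted p = 0.090 in the same test). In fits that left out 1 wt or Lmo2Tg library the number of members called changed. The share of all genes is not given for them, so this is not read as a result about the members. Eif4g2 lost its call in all 5 of these fits, Eif2s1 in 4 and Eif2s3x in 3.

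Genes around eIF2 moved in the same comparison. Of 9 tested genes of the eIF2 phosphatase and the ATF4 response, 6 rose in Lmo2Tg cells: Atf4 (1.08), Ddit3 (0.63), Atf3 and Trib3 (both at 36 reads or fewer in every library), and Ppp1r15a and Ppp1r15b (2.21 and 0.32), the regulatory subunits of the eIF2 phosphatase. Ppp1r15a varied widely, with 82.1, 145 and 17.7 CPM in wt and 302 and 454 CPM in Lmo2Tg libraries. Sesn2 and Ddit4 were higher and Asns lower without passing, Asns at means of 1.33 CPM in Lmo2Tg and 1.67 CPM in wt libraries. Chac1, at 1 read or fewer in these libraries, was not tested. The 4 eIF2 kinase genes did not pass. Pdcd4, an inhibitor of eIF4A, rose by 0.77, Mknk2, a kinase of eIF4E, rose by 0.48, and Deptor, an inhibitor of mTOR, rose by 2.61. Of the 10 DN3 markers 8 fell, among them Rag2 (-2.33), Ptcra (-1.897) and Cd3g (-1.56), and their summed level was 11100 to 11500 CPM in wt and 7410 to 8050 CPM in Lmo2Tg libraries, with no marker at 0. Their part in the results for the members was not tested.

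**Figure D5:**
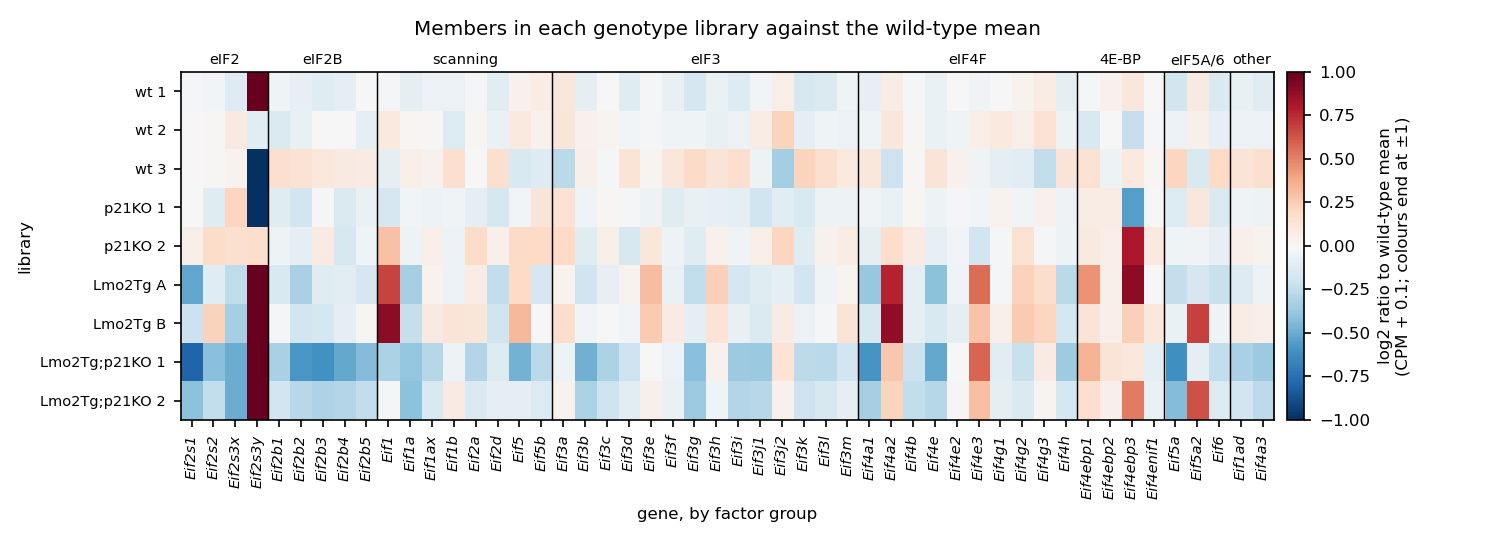
Log2 ratio of CPM (with 0.1 added) to the wild-type mean for the 50 members tested (x axis, by factor group) in each genotype library (y axis), with colours that end at ±1. The 2 Lmo2Tg;p21-/- libraries are lower over most of eIF2B, eIF3 and eIF4F, and Eif2s3y varies most.

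Loss of p21 in Lmo2Tg cells was accompanied by lower levels of most initiation factor genes. In Lmo2Tg;p21-/- against Lmo2Tg cells 44 of the 50 members were lower, with a median log2 difference of -0.19, while the median over all genes was 0.02 and 52.7% of all genes had a value above 0. Most of these differences were too small for the test: 4 members passed, all lower, which is 8% of the members and close to the 6.94% of all genes that passed in edgeR's quasi-likelihood test (3.59% as lower). The groups did not overlap for 34 members and for 54.8% of all genes. The 4 were Eif1, Eif4a2, Eif5 and Eif4g2, of which all but Eif5 had passed as higher in Lmo2Tg against wt cells. Both comparisons use the same 2 Lmo2Tg libraries, so high values there enter both.

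Eif1 had 435 and 504 CPM in Lmo2Tg and 218 and 269 CPM in Lmo2Tg;p21-/- libraries, where wt libraries had 256 to 290 CPM. It fell by 0.95 (SE 0.15, adjusted p = 0.0074 in edgeR's quasi-likelihood test). Eif4a2 had 665 and 721 CPM against 469 and 454 CPM, above the 337 to 422 CPM of wt libraries, and fell by 0.59 (SE 0.12, adjusted p = 0.019 in the same test). Eif1 thus lay within or below the range of wt, and Eif4a2 stayed above it.

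Eif5 had 536 and 585 CPM against 336 and 435 CPM and fell by 0.54 (SE 0.13, adjusted p = 0.038 in edgeR's quasi-likelihood test). In Lmo2Tg against wt cells, where wt libraries had 481, 499 and 420 CPM, it had differed by 0.27 (SE 0.12) without passing (adjusted p = 0.11 in the same test). Eif4g2 had 2108 and 2157 CPM in Lmo2Tg and 1538 and 1624 CPM in Lmo2Tg;p21-/- libraries and fell by 0.43 (SE 0.095, adjusted p = 0.026 in edgeR's quasi-likelihood test). Both double-mutant values of Eif4g2 were also below the lowest wt library, 1671 CPM.

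By factor group, all 5 eIF2B genes, all 4 eIF2 genes, 13 of the 14 eIF3 genes and 8 of the 10 tested genes of eIF4F and its helpers were lower in Lmo2Tg;p21-/- than in Lmo2Tg cells, with medians of -0.26, -0.31, -0.19 and -0.13. Of the eIF4E-binding proteins, 3 of 4 were lower, with a median of -0.09. None of the eIF2, eIF2B and eIF3 genes passed alone. Eif5a had 1077 and 1217 CPM in Lmo2Tg and 830 and 941 CPM in Lmo2Tg;p21-/- libraries, the lowest of the 9, and its difference of -0.37 (SE 0.13) did not pass (adjusted p = 0.10 in edgeR's quasi-likelihood test). Eif2s1 had 137 and 170 CPM against 113 and 148 CPM, which overlap, with a difference of -0.23 (SE 0.13, adjusted p = 0.29 in the same test).

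Replicate 1 of Lmo2Tg;p21-/- was below replicate 2 for 39 of the 50 members. Leaving out 1 library changed which members were called. Eif4g2 lost its call in all 4 fits that left out 1 library, Eif4a2 and Eif5 in 3 and Eif1 in 1. The median stayed between -0.26 and -0.15 over the fits that left out 1 library. DESeq2 called 11 members in this comparison, all lower. The share of all genes that it called is not given here, so this count is not read as a result about the members.

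The genes around eIF2 were also lower in this comparison: all 9 tested genes of the eIF2 phosphatase and ATF4 response, of which Atf4 (-1.02), Ddit3 (-0.63), Ppp1r15b (-0.38) and Atf3 passed. Atf3 rested on few reads, 36 and 18 in Lmo2Tg and 1 and 0 in Lmo2Tg;p21-/- libraries, and no fold is given. Atf4 had 168, 192 and 163 CPM in wt, 153 and 222 in p21-/-, 357 and 377 in Lmo2Tg, and 178 and 185 in Lmo2Tg;p21-/- libraries. The release factor gene Etf1 fell by 0.53 and Ddx3x fell by 0.57. Lyz2, a myeloid gene, rose by 1.38, and the 7 myeloid and dendritic markers summed to 16.9 and 17 CPM in Lmo2Tg and 23.8 and 31.7 CPM in Lmo2Tg;p21-/- libraries, with Siglech at 0 in both Lmo2Tg libraries, where the DN3 markers summed to 7410 to 8050 and 7710 to 8060 CPM. The part of other cells in these differences was not tested.

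The interaction asks whether loss of p21 acted differently with and without the transgene. It was negative for 40 of the 50 members, with a median of -0.16, beside 0.01 over all genes, of which 51.7% lay above 0. Only Eif1 passed in edgeR's quasi-likelihood test, at -1.03 (SE 0.20, adjusted p = 0.038), or 2% of the members where 1.38% of all genes passed (1.1% as negative). In Eif1, p21-/- libraries had 242 and 334 CPM beside the 256 to 290 CPM of wt, and so did not fall where Lmo2Tg;p21-/- fell. For Eif4a2, Eif5 and Eif4g2 the interaction was -0.65 (SE 0.16), -0.63 (SE 0.18) and -0.50 (SE 0.13), with adjusted p of 0.083, 0.11 and 0.090 in edgeR's quasi-likelihood test, so a difference between the 2 effects of p21 loss was not shown for them. The call of Eif1 was lost in 8 of the 9 fits that left out 1 library, where its value ran from -1.24 to -0.78 and the highest adjusted p was 0.18 in edgeR's quasi-likelihood test. It was kept without p21-/- 1. Atf4 also passed, at -1.12.

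The transgene was examined a second time in cells without p21, in 4 libraries that Lmo2Tg against wt does not use. In Lmo2Tg;p21-/- against p21-/- cells, 13 of the 50 members passed in edgeR's quasi-likelihood test, Eif4e3 as higher and 12 as lower. That is 26% of members, against 30.7% of all genes (16.3% higher and 14.4% lower). The groups did not overlap for 37 members and for 70.9% of all genes, and 37 members were lower where 49.6% of all genes lay above 0. The median of the members was -0.22, beside 0.00 over all genes. It had been -0.01 in Lmo2Tg against wt cells. The 12 that fell were Eif2s1 (-0.62), Eif2s3x (-0.69) and Eif2b3 (-0.48) around eIF2, Eif3b and Eif3c (-0.32 and -0.29) of eIF3, Eif4e, Eif4a1 and Eif4b (-0.33, -0.40 and -0.28) of the cap-binding machinery, Eif5b and Eif1a (-0.37 and -0.36), which join the ribosomal subunits, and Eif5a (-0.43) and Eif4a3 (-0.30). Eif2s3x had 78.3 and 75.6 CPM in p21-/- libraries, of which the first had almost no Y-linked reads, and 47.7 and 47.8 CPM in Lmo2Tg;p21-/- libraries.

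The cap-binding protein gene Eif4e had 136 and 133 CPM in p21-/- and 98.4 and 115 CPM in Lmo2Tg;p21-/- libraries (adjusted p = 0.047 in edgeR's quasi-likelihood test). Eif4a1 had 1202 and 1155 CPM against 816 and 975 CPM (adjusted p = 0.022 in the same test), and Eif5a had 1157 and 1235 CPM against 830 and 941 CPM (adjusted p = 0.026 in the same test). All 3 were without overlap. Their E-box windows are printed above, but these genes and windows were picked with the values known. A link between the E-box and these levels was not tested. The other members with an E-box window, Eif1b, Eif3f, Eif3k, Eif4g1, Eif4h and Eif5a2, did not pass in this comparison.

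Eif2s1 had 197 and 206 CPM in p21-/- and 113 and 148 CPM in Lmo2Tg;p21-/- libraries, with a standard error of 0.13 on its difference and an adjusted p of 0.0044 in edgeR's quasi-likelihood test. Eif4e3 had 41.2 and 36.8 CPM against 62.9 and 51.6 CPM and rose by 0.55 (SE 0.12, adjusted p = 0.0064 in the same test). Eif4a2 and Eif1, the members that had risen most in Lmo2Tg against wt cells, did not pass here, at 0.18 (SE 0.12, adjusted p = 0.26 in edgeR's quasi-likelihood test) and -0.24 (SE 0.15, adjusted p = 0.25 in the same test). Eif4g2 and Eif5 did not pass either, at -0.25 and -0.36.

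Between the 2 comparisons of the transgene, 36 of the 50 members (72%) had the same sign, and so did 72.6% of all genes. Called in both, in the same direction, were Eif4e3 as higher and Eif2s1, Eif2s3x and Eif1a as lower. These are 50% of the members called in Lmo2Tg against wt and 30.8% of those called in Lmo2Tg;p21-/- against p21-/-, where the shares for all genes were 53.2 and 63.3%. In both, Deptor, Mknk2, Rptor and Tsc1 rose, and the DN3 markers fell, 8 of 10 each time. In the comparison with p21-/- cells the calls of individual members leaned on single libraries. Over the 4 fits that left out 1 library, the median of the members ran from -0.285 to -0.146. Eif2s1, Eif2s3x and Eif1a passed in all 4 of these fits, whereas Eif4a3 passed in none and Eif4e, Eif4a1, Eif5a, Eif4b, Eif3b and Eif3c each in 1.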

How the data were processed

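After poly(A) capture, the authors counted reads for protein-coding genes and deposited the raw counts, without normalization, as 1 table for each experiment. Per the submitters' processing notes the reads were aligned to mm10 with STAR 2.4.2a and counted with featureCounts. The deposited tables are marked as counted by strand (GFP table) and without strand (genotype table). Of 16 labelled samples, 15 libraries were used; 1 per-sample column of the genotype table, named Lp3, matched no label and was not used, and the third p21-/- sample is not analysed here. Columns of Lmo2Tg name the group only, so its libraries are called A and B.

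Genes were filtered with filterByExpr (minimum count 10, minimum total 15), scaled by TMM and tested with edgeR 4.0.16 (R 4.3.3) by its quasi-likelihood test, with Benjamini-Hochberg adjustment over all genes of a table and a threshold of 0.05. The 9 genotype libraries shared 1 fit. SE is that of the log2 fold change. The members and the lists of pathway genes and markers were chosen with earlier results of these data known. Named genes were the called members, 12 factors chosen by role, and called genes of the lists. The eIF2B subunits, Eif4b in Lmo2Tg;p21-/- against p21-/-, and the genes with printed promoters were named after their values were seen. The study describes RNA pools of 3 to 5 mice for expression arrays and cohorts for the GFP cells, and does not say how the genotype replicates were made. The p-values therefore measure the spread between these libraries, which may be technical in part. Y-linked reads differed widely within wt, p21-/-, GFP_HI and GFP_LO, so the libraries of each of these groups were not all from the same pool.

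Positions and lengths came from GENCODE M21 (98.22% of gene identifiers matched), and promoters from RefSeq. Shared sequence was counted as stretches of 50 bases in annotated transcripts. Alternatives used DESeq2 1.42.0, limma-voom (limma 3.58.1), other filters and scalings, the replicate number as a block, and single libraries left out. Figures were drawn in matplotlib 3.10.9 with Python 3.11.15. The test was also tried on simulated counts with known changes. These gave all genes the same spread and held no outlying library such as GFP_HI 3, so no conclusion is drawn from them here. Counts of 3, taken as the lowest that can be told from 0, equal 0.0966 to 0.222 CPM in these libraries.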

Additional observations from a re-analysis of the deposited data

Results flagged for a closer look

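A test of the interaction passed for 1 member, Eif1, and for 1.38% of all genes. The interaction of p21 loss with the Lmo2 transgene was -1.031 on the log2 scale (adjusted p = 0.038 in edgeR's quasi-likelihood test). Its value ran from -1.242 to -0.78 over the fits that left out 1 library. As given above, the call was lost in most of those fits, so it leans on single libraries. Eif1 had 270, 290 and 256 CPM in wt, 242 and 334 CPM in p21-/-, 435 and 504 CPM in Lmo2Tg, and 218 and 269 CPM in Lmo2Tg;p21-/- libraries. Both Lmo2Tg;p21-/- libraries were below both Lmo2Tg libraries, and the p21-/- libraries lay on either side of wt. No other member passed the test of the interaction.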

How the results depend on the processing

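Over the 6 comparisons no called member changed direction under any alternative. Apart from the fit without GFP_HI 3, counts of members under alternatives, here and above, are given without the share of all genes that passed. Those counts are not read as results about the members. At an adjusted p under 0.01 the members called fell to 1 (GFP_HI against GFP_LO), 2 (Lmo2Tg against wt), 1 (Lmo2Tg;p21-/- against Lmo2Tg), 4 (Lmo2Tg;p21-/- against p21-/-) and 0 (interaction, with 11 at an unadjusted p under 0.05 in edgeR and 4 called by DESeq2 at 0.05). DESeq2 called 11 members in Lmo2Tg;p21-/- against Lmo2Tg and 4 in the interaction, and the interaction without a filter gave 4. In the libraries with Y-linked reads, an alternative chosen after seeing the data, 9 members passed in Lmo2Tg;p21-/- against Lmo2Tg and 3 in the interaction. Leaving out 1 library at a time gave 1 to 22 members in GFP_HI against GFP_LO, 2 to 7 in Lmo2Tg against wt, 0 to 3 in Lmo2Tg;p21-/- against Lmo2Tg, 3 to 15 in Lmo2Tg;p21-/- against p21-/-, and 0 to 3 in the interaction, where Eif1 in Lmo2Tg;p21-/- against p21-/-, not called, ran from -0.45 to 0.006 (without p21-/- 2). The cause was not tested. Where 1 library of a group was left, it is assumed to vary like the others.

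Same-numbered libraries were not clearly alike (correlations of 0.07, -0.079 and 0.099 between same-numbered GFP libraries, and -0.237 and 0.303 between p21-/- and wt). With so few libraries this cannot show that the samples were unpaired. DESeq2 called 6 members higher and 6 lower in GFP_HI against GFP_LO, and scaling without chromosomes 2, 15 and 17 called 1 and 5, against 3 and 5. With the replicate block, 1 member (Eif4ebp1) passed in GFP_HI against GFP_LO and 0 in p21-/- against wt. Eif4ebp3 and Eif3j2 were below 1 CPM in every library and share 65.5 and 91.8% of their stretches of 50 bases with other genes, so no direction is read for them.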
